A study of Saccharomyces cerevisiae with 15 samples.

Results

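The transcripts described here are those of 9 genes of Saccharomyces cerevisiae whose enzymes take ethanol, acetaldehyde and acetate to acetyl-CoA, or act on acetyl-CoA and acetate in the mitochondrion: the alcohol dehydrogenase gene ADH2, the acetaldehyde dehydrogenase genes ALD2, ALD3, ALD4, ALD5 and ALD6, the acetyl-CoA synthetase genes ACS1 and ACS2, and ACH1. They were taken by gene symbol from the annotation of the array. They are 9 of the 5656 genes that have a named probe set, and 11 of the 9275 probe sets without controls belong to them. Each gene has 1 probe set of its own that was tested. ALD6 has another probe set that could not be used, and 1 further probe set is assigned to ALD2 and ALD3 together.

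All cells were of the single strain VTT-C-99318, a derivative of CEN.PK2-1D with leu2, ura3, trp1, his3, MAL2 and SUC2 alleles. It carries XYL1 and XYL2 of Pichia stipitis, for xylose reductase and xylitol dehydrogenase, at the URA3 locus, and an extra copy of its own xylulokinase gene XKS1 at the HIS3 locus. XYL1 is driven by the PGK1 promoter, XYL2 and the added XKS1 by a modified ADH1 promoter, so all states share these insertions, and no strain without them was on the arrays. Aerobic batch cultures in synthetic complete medium were started with 50 g/l glucose or 50 g/l xylose, 3 cultures for each sugar. The glucose cultures were sampled at 5 h with 37 g/l glucose remaining (glucose repressed cells, Glc5h) and at 24 h with 0 g/l glucose and 13 g/l ethanol (glucose derepressed cells, Glc24h). The xylose cultures were sampled at 72 h with 32 g/l xylose remaining (Xyl72h). The harvest time in the sampling notes of some Glc24h and Xyl72h samples differs from the time in their titles and source names, and the titles and source names were followed. The sugar and the time of growth changed together between the xylose and the glucose states. The paper also gives a different doubling time for each state, and less ethanol in the xylose cultures than in Glc24h. The parts of these factors cannot be told apart.

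Yeast that has used up glucose oxidises the ethanol it excreted: alcohol dehydrogenase gives acetaldehyde, acetaldehyde dehydrogenase gives acetate with formation of NADH or NADPH, and acetyl-CoA synthetase joins acetate to coenzyme A at the cost of ATP. The same dehydrogenases and synthetases supply the cytosol with acetyl-CoA during fermentative growth, starting from pyruvate by way of pyruvate decarboxylase, since yeast lacks ATP citrate lyase. Part of the genes, ADH2 and ACS1 among them, is classically repressed by glucose and activated by Adr1p and Cat8p when the Snf1p kinase is active, whereas ALD6 and ACS2 serve cells growing on glucose.

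A total of 15 Affymetrix arrays stood for 9 samples, because the sample of the culture numbered 2 was hybridised 3 times in each state. The signals are linear and were scaled here to a common 75th percentile of 51.08. Values under a floor of 16 were set to 16, as 52.3% of all values were. A difference is a difference of mean log2 signals, and a gene is called when limma's adjusted p over all 5877 tested probe sets is under 0.05. The states were checked on genes of known behaviour. HXT1, a transporter gene induced by high glucose, had a signal of 253 ± 126 (SD, n = 3 cultures, as in all values below) in Glc5h against 20.7 ± 8.08 in Glc24h and 18.1 ± 1.09 in Xyl72h. FBP1, the gluconeogenic fructose-1,6-bisphosphatase gene, was at 16 in all Glc5h cultures, at 496 ± 246 in Glc24h and at 31.2 ± 3.77 in Xyl72h. One array stood apart in a control of RNA quality: signals of the 3′ and 5′ ACT1 controls stood in a ratio of 10.3 in the Glc24h sample of culture 1 and of 1.86 to 3.01 on all other arrays. For SPT15, another control gene, the ratio in the same sample was 3.24, within the 2.71 to 4.13 of the other arrays. The members' values with and without that sample are given where it matters, and its part in the results was not tested otherwise.

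On xylose the 9 genes fell into distinct patterns. ACS1, ACH1 and ADH2 were higher in Xyl72h than in glucose repressed cells, by 6.08-fold, 8.35-fold and 3.62-fold, and ACS1 and ADH2 were also lower than in derepressed cells, by 5.17-fold and 4.89-fold. Both calls of ADH2 were narrow (adjusted p = 0.0366 and 0.0486). They were lost in 6 and 8 of the 9 fits with 1 sample left out. ALD6 was lower on xylose than in either glucose state, by 4.62-fold and 5.55-fold. ALD5 was 4.48-fold higher on xylose than in derepressed cells. ALD3 was called higher than in glucose repressed cells by a narrow margin, and ALD2, ALD4 and ACS2 were called in no comparison. RNA came from whole cultures, so fewer cells with a transcript and less of it per cell cannot be told apart.

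Between Xyl72h and Glc5h, 5 of the 9 genes were called (4 higher, 1 lower), beside 25.7% of all tested probe sets (11.7% higher and 14.0% lower). Their median log2 difference was 1.05 against −0.02 over all tested probe sets. Between Xyl72h and Glc24h, 4 were called (1 higher, 3 lower), beside 5.63% of all (3.37% higher and 2.26% lower), with a median of −0.69 against 0 over all. Between Glc24h and Glc5h, 4 were called (3 higher, 1 lower), beside 33.5% of all (14.4% higher and 19.1% lower), with a median of 0.82 against −0.03. The cultures of the compared states did not overlap for 6, 5 and 5 of the genes, beside 41.0%, 24.8% and 42.5% of all probe sets. Each state enters 2 of the 3 comparisons, so these counts share samples. In limma's F-test over the 3 states 5 of the 9 were called, beside 34.3% of all: ADH2, ALD5, ALD6, ACS1 and ACH1.

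**Figure D1:**
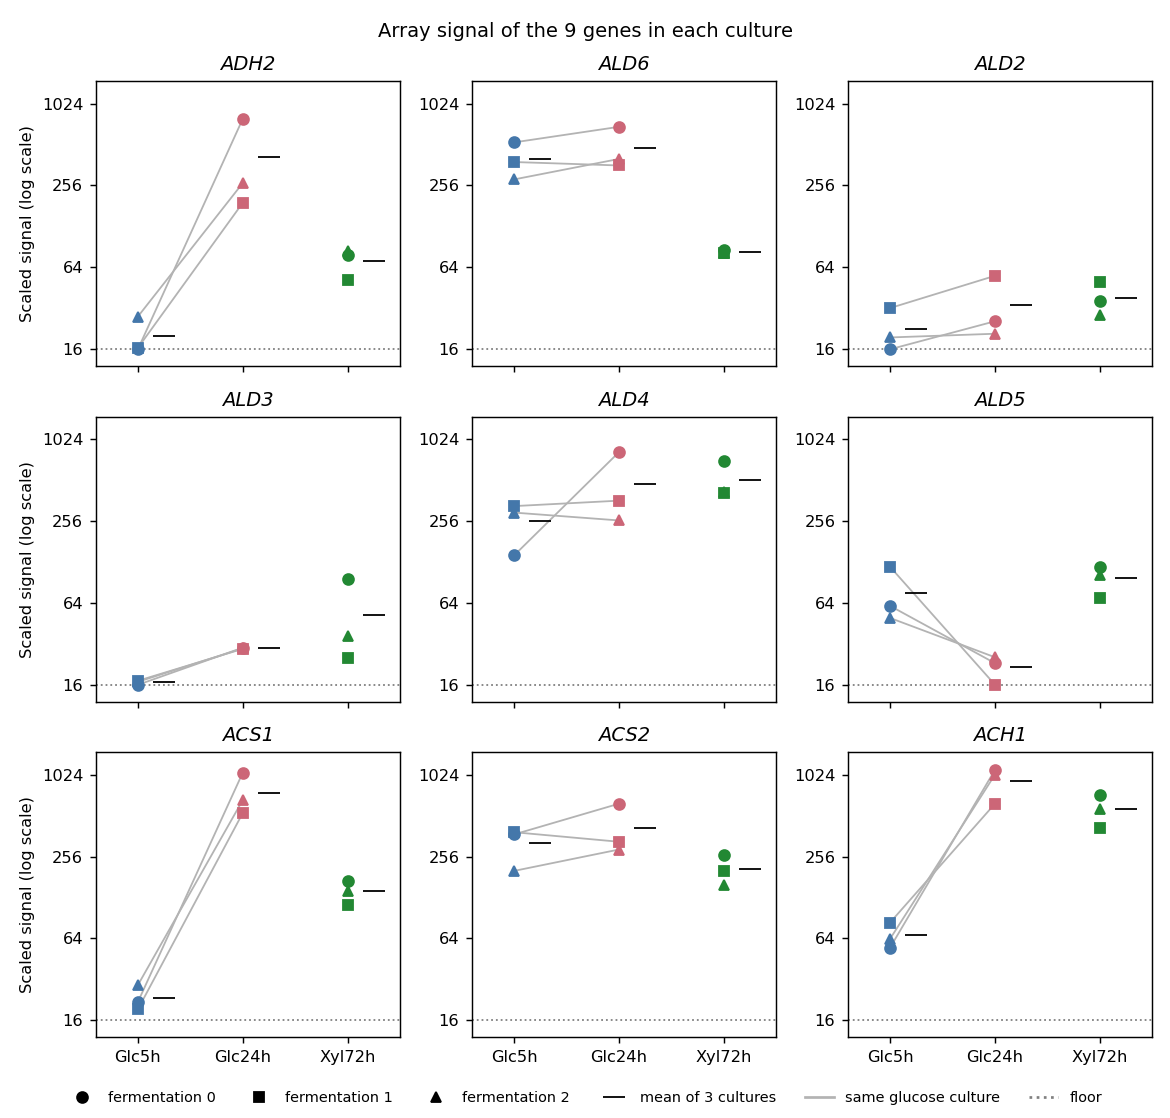
Scaled array signal (log axis) of the 9 genes in Glc5h, Glc24h and Xyl72h; each symbol is 1 culture, short bars are means of 3 cultures, grey lines join the 2 samples of a glucose culture and the dotted line is the floor of 16. ACS1, ADH2 and ACH1 rose between the glucose samples of every culture, ALD5 fell in every culture, and the 3 xylose cultures of ALD6 lay together between 82.0 and 86.2.

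**Figure D2:**
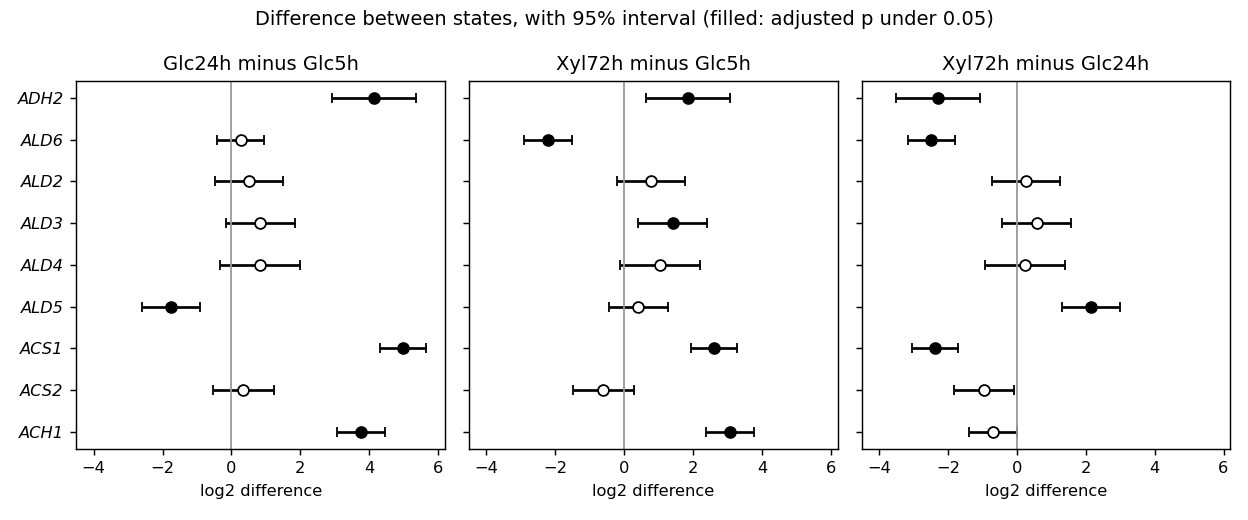
Log2 difference (x axis) of each gene in the 3 comparisons, with the 95% interval from limma; filled points have an adjusted p under 0.05. The xylose columns show ALD6 below 0 in both, ACS1 and ADH2 above 0 against Glc5h and below 0 against Glc24h, and ALD5 above 0 against Glc24h.

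The first step, oxidation of ethanol to acetaldehyde, is the role of the glucose-repressed alcohol dehydrogenase encoded by ADH2 (YMR303C). In Glc5h its signals were 16, 16.4 and 27.8 in cultures 0, 1 and 2, at or close to the floor. In Glc24h they were 792, 191 and 267, and in Xyl72h 79.4, 51.5 and 84.8. No culture of one state overlapped with one of another, and the xylose cultures lay between those of the 2 glucose states. From 5 h to 24 h ADH2 rose by 5.63, 3.54 and 3.26 on the log2 scale in cultures 0, 1 and 2. The mean rise was 4.15, with SE 0.52 and adjusted p = 0.00114 from limma's fit without pairing. With the culture as a block among the glucose samples the adjusted p was 0.0410. Xylose-grown cells were above Glc5h by 1.86 (SE 0.52, adjusted p = 0.0366) and below Glc24h (log2 difference −2.29, adjusted p = 0.0486). On the log2 scale the xylose mean stood at 44.8% of the way from the repressed to the derepressed mean.

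Both xylose differences of ADH2 were near the threshold. The call against Glc5h was lost when any of 6 of the 9 samples was left out (Glc5h cultures 0 and 1, Glc24h culture 2, or any xylose culture; adjusted p from 0.0572 to 0.124), and the call against Glc24h when any but Glc24h culture 1 was left out (0.0527 to 0.164). The direction held each time, with log2 differences from 1.72 to 2.12 and from −2.71 to −1.69. With a floor of 32 in place of 16 the difference from Glc5h was 1.13 and was not called (adjusted p = 0.143), and that between the glucose states was 3.42 (adjusted p = 0.00231). The Glc24h sample of culture 0 was the highest by far, and without it xylose lay 3.22-fold below derepressed cells and the derepressed cells 11.7-fold above the repressed ones, in place of 4.89-fold and 17.7-fold. ADH1, a close paralog, had a mean signal of 1475 ± 750 in Glc5h, where the ADH2 probe set was at 16 to 27.8. Cross-hybridisation between the genes was not tested.

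The second step makes acetate. ALD6 (YPL061W) encodes the cytosolic, NADP-dependent acetaldehyde dehydrogenase that is the main source of acetate on glucose and one of the sources of cytosolic NADPH. Its signals in Glc5h were 531, 381 and 284 in cultures 0, 1 and 2. In Glc24h they were 691, 359 and 401. In Xyl72h they were 86.2, 82.0 and 82.2, so that the xylose cultures were below every glucose sample and within 5 signal units of each other, while the glucose states overlapped. The means were 398 ± 125, 484 ± 181 and 83.5 ± 2.34.

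ALD6 on xylose was below Glc5h (log2 difference −2.21, SE 0.30, adjusted p = 0.00243) and below Glc24h (log2 difference −2.47, SE 0.30, adjusted p = 0.00568). Both calls were kept when any of the 9 samples was left out, with adjusted p from 0.00195 to 0.0132 and from 0.00785 to 0.0289. Of the 5877 tested probe sets 20 (0.340%) were called lower on xylose than in both glucose states, and ALD6 was the only one of the 9 genes among them. Between the glucose states the difference was 0.27 with an interval from −0.42 to 0.96 (adjusted p = 0.525). Another probe set annotated as ALD6 gave signals of 0.0904 to 3.03, far under the floor on every array, and was not tested. With the arrays scaled on reference genes or quantile normalised, ALD6 was also called higher in Glc24h than in Glc5h, by 0.87 (adjusted p = 0.0465) and 0.74 (adjusted p = 0.0101).

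ALD2 (YMR170C) and ALD3 (YMR169C) are neighbouring, closely similar genes for cytosolic, NAD-dependent aldehyde dehydrogenases, known as stress-inducible and as a source of beta-alanine for coenzyme A synthesis. ALD3 signals were 16, 17.1 and 16.8 in Glc5h, 30.0, 29.4 and 29.7 in Glc24h, and 96.1, 25.0 and 36.3 in Xyl72h. The Glc5h cultures lay at the floor and below all others, while the xylose cultures enclosed those of Glc24h, culture 0 being far above the other xylose cultures. The xylose cells were 1.41 above Glc5h (SE 0.43, adjusted p = 0.0472) and 0.58 above Glc24h (adjusted p = 0.560), and the F-test over the 3 states did not call ALD3 (adjusted p = 0.0819). The call against Glc5h was lost without any 1 glucose sample or without Xyl72h culture 2 (7 of 9 samples, adjusted p from 0.0747 to 0.134). Without Xyl72h culture 0 it was kept at a smaller difference of 0.86 (adjusted p = 0.0216). With a floor of 32 the difference was 0.60 and not called (adjusted p = 0.301), and with a floor of 4 it was 2.10 (adjusted p = 0.0336). Derepressed cells were 0.84 above the repressed ones (adjusted p = 0.175), and with the culture as a block among the glucose samples this difference was called (adjusted p = 0.0369).

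ALD2 signals were low throughout: 16, 32.2 and 19.5 in Glc5h, 25.7, 55.5 and 20.8 in Glc24h, and 35.9, 50.0 and 28.7 in Xyl72h. The states overlapped in each comparison, and the cultures kept a similar order in each state, with culture 1 the highest. The differences were 0.79 (Xyl72h minus Glc5h, adjusted p = 0.217), 0.27 (Xyl72h minus Glc24h, 0.864) and 0.52 (Glc24h minus Glc5h, 0.386). With the fermentation number as a block, the difference of 0.79 was called (adjusted p = 0.0314).

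The probe set assigned to both genes had signals of 64.6, 120 and 123 in Glc5h, 149, 128 and 170 in Glc24h, and 327, 166 and 211 in Xyl72h. It was above Glc5h in xylose-grown cells by 1.20 (SE 0.33, adjusted p = 0.0326) and not called against Glc24h (0.61, adjusted p = 0.374). As for ALD3, xylose culture 0 was the highest. RNA of the 2 genes cannot be told apart on it.

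Mitochondrial acetaldehyde dehydrogenases are encoded by ALD4, the major isoform during growth on ethanol, and ALD5, a minor one. ALD4 (YOR374W) had signals of 143, 330 and 295 in Glc5h, 821, 361 and 259 in Glc24h, and 713, 412 and 419 in Xyl72h. The xylose cultures were all above the Glc5h cultures, but the difference of 1.05 (SE 0.50, interval −0.11 to 2.21) was not called (adjusted p = 0.166). The cultures differed from each other: the change from 5 h to 24 h was 2.52, 0.13 and −0.19 in cultures 0, 1 and 2. The mean change of 0.82 between the glucose states was not called (adjusted p = 0.246), nor was the difference of 0.23 between Xyl72h and Glc24h (adjusted p = 0.927).

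ALD5 (YER073W) differed from the rest in being lowest in the derepressed cells. Its signals were 60.9, 118 and 49.6 in Glc5h, 23.1, 16 and 25.5 in Glc24h, and 118, 69.5 and 103 in Xyl72h. The Glc24h cultures lay close to the floor and under all others, while xylose and Glc5h overlapped. From 5 h to 24 h ALD5 changed by −1.40, −2.88 and −0.96 on the log2 scale in cultures 0, 1 and 2. The mean change was −1.75 (SE 0.36, adjusted p = 0.00896, both from limma's fit without pairing). Xylose was 2.16 above Glc24h (SE 0.36, adjusted p = 0.0186) and 0.42 above Glc5h with an interval from −0.43 to 1.26 (adjusted p = 0.448).

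The low Glc24h level of ALD5 included the array with the high ACT1 ratio, on which ALD5 was at the floor. Without that sample the fall from 5 h to 24 h was still called (log2 difference −1.55, adjusted p = 0.0330), while the xylose difference of 1.96 was not (adjusted p = 0.0603). The xylose call was also lost without Glc24h culture 0, Xyl72h culture 0 or Xyl72h culture 2 (adjusted p from 0.0501 to 0.0715). The fall between the glucose states was not called with the culture as a block among the glucose samples alone (adjusted p = 0.0920) nor with scaling on reference genes (−1.18, adjusted p = 0.0566). With a floor of 32 both differences were smaller, −1.15 between the glucose states (adjusted p = 0.0355) and 1.56 for xylose against Glc24h (adjusted p = 0.0378).

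The last step is the activation of acetate. ACS1 (YAL054C) encodes the acetyl-CoA synthetase that is repressed by glucose and serves growth on ethanol and acetate. Its signals were 21.9, 19.3 and 29.1 in Glc5h, 1062, 536 and 668 in Glc24h, and 170, 113 and 143 in Xyl72h. The 3 states were fully separated, with means of 23.4 ± 5.07, 755 ± 273 and 142 ± 28.5.

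From 5 h to 24 h ACS1 rose by 5.60, 4.80 and 4.52 in cultures 0, 1 and 2. The mean of 4.97 (31.4-fold) was the largest of the 27 differences tested for the 9 genes. Its SE of 0.29 and adjusted p of 8.08e-05 are from limma's fit without pairing. The highest adjusted p under any alternative was 0.0264. Xylose was 2.60 above Glc5h (SE 0.29, adjusted p = 0.00116) and below Glc24h (log2 difference −2.37, adjusted p = 0.00583), which put its mean at 52.4% of the log2 distance between the glucose states. All 3 calls of ACS1 were kept whichever sample was left out. Like ADH2, ACS1 was called higher than Glc5h and lower than Glc24h on xylose, as were 42 (0.715%) of the tested probe sets.

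ACS2 (YLR153C), the synthetase that is essential on glucose and also serves histone acetylation in the nucleus, had signals of 372, 387 and 201 in Glc5h, 627, 329 and 289 in Glc24h, and 261, 201 and 159 in Xyl72h. The xylose cultures were below all derepressed ones. The difference of −0.95 from Glc24h (SE 0.38, interval −1.82 to −0.07) was not called after adjustment (adjusted p = 0.225), and that of −0.60 from Glc5h was not either (interval −1.48 to 0.28, adjusted p = 0.287). Between the glucose states the difference was 0.35 (interval −0.53 to 1.22, adjusted p = 0.514). The 2 synthetase genes thus differed in the glucose comparison, with intervals that did not meet (4.30 to 5.64 for ACS1), a difference that was not itself tested.

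ACH1 (YBL015W) encodes a mitochondrial enzyme first described as an acetyl-CoA hydrolase and known to transfer coenzyme A from succinyl-CoA to acetate. Its signals were 54.8, 83.8 and 63.6 in Glc5h, 1114, 628 and 1027 in Glc24h, and 727, 412 and 569 in Xyl72h. All Glc5h cultures were far below the others, and the Xyl72h and Glc24h cultures overlapped. The means were 67.4 ± 14.9, 923 ± 259 and 569 ± 157.

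ACH1 on xylose was 3.06 above Glc5h (8.35-fold, SE 0.30, adjusted p = 0.000676), the largest of the 9 differences in that comparison. From 5 h to 24 h it rose by 4.34, 2.90 and 4.01 in cultures 0, 1 and 2. The mean was 3.75 (13.5-fold, adjusted p = 0.000197 from limma's fit without pairing), and scaling on reference genes gave 4.36 (adjusted p = 0.000151). The highest adjusted p under any alternative was 0.0296. Against Glc24h the xylose cells differed by −0.69 (interval −1.38 to 0.00, adjusted p = 0.261), and the xylose mean stood at 81.6% of the log2 distance between the glucose states. With quantile or cyclic loess normalisation this difference was called (−1.17, adjusted p = 0.0175, and −1.09, adjusted p = 0.0473). The xylose mean lay between the means of both glucose states for 3 of the 9 genes, ADH2, ACS1 and ACH1, beside 43.7% of all tested probe sets.

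Cultures of the same state varied more than repeated hybridisations of a sample. For the 9 genes the SD between cultures was 0.47 on the log2 scale in Glc5h, 0.64 in Glc24h and 0.48 in Xyl72h (root mean square over the genes), and that between the 3 hybridisations was 0.16, 0.15 and 0.15. In Glc24h, glucose culture 0 had the highest signal of ADH2, ALD3, ALD4, ALD6, ACS1, ACS2 and ACH1, by a narrow margin for ALD3. In Xyl72h, the separate xylose culture numbered 0 was the highest for ALD3, ALD4, ALD5, ALD6, ACS1, ACS2 and ACH1. The SD of ADH2 in Glc24h (1.07 on the log2 scale) and that of ALD3 in Xyl72h (1.00) were the widest, and that of ALD6 in Xyl72h (0.04) was one of the narrowest.

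**Figure D3:**
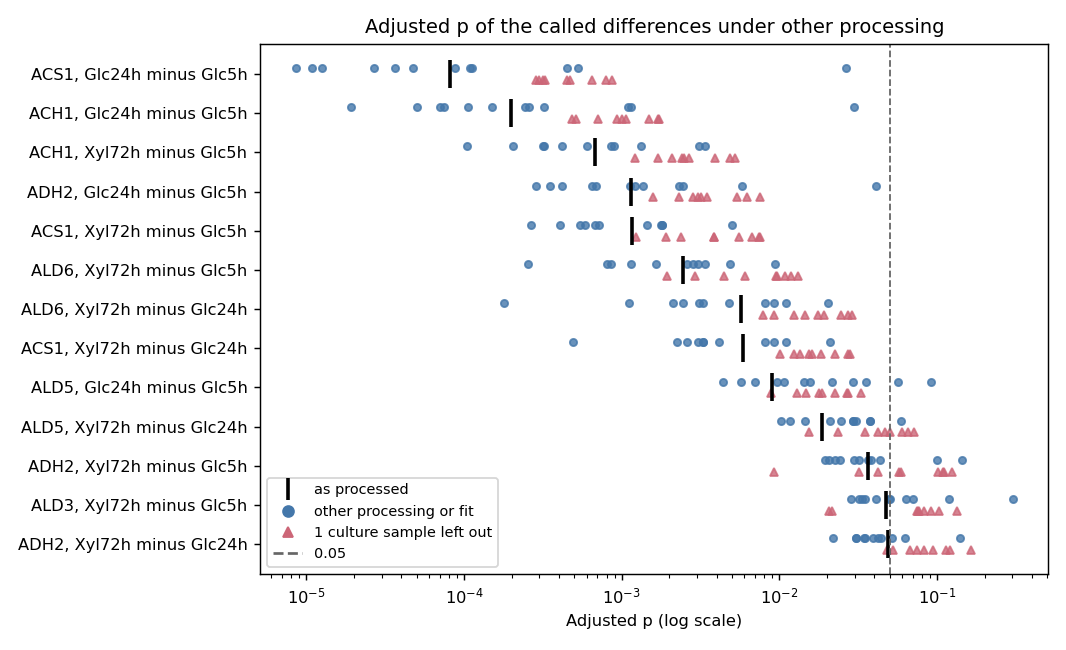
Adjusted p (log axis) of the 13 called differences as processed (black bars), under other processing or fits (circles) and with 1 culture sample left out (triangles); the dashed line is 0.05. All points of ACS1, ACH1 and ALD6 and those of ADH2 between the glucose states lie left of the line. The xylose differences of ADH2, ALD3 and ALD5 and the ALD5 difference between the glucose states have points on both sides.

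Over the 9 samples, the profile of ADH2 was most like that of ACS1 (Pearson r of log2 signals 0.978, among 4108 candidate probe sets), followed by MDH2, the cytosolic malate dehydrogenase gene (0.972), and CRC1, the mitochondrial carnitine carrier gene (0.972). The nearest profiles to ACS1 were those of HEF3 (0.992), NDE2 (0.992) and GAC1 (0.990), and to ACH1 those of ATG36 (0.992), AGX1 (0.992) and MBR1 (0.991). ACS1 and ACH1 correlated at 0.937. These values are descriptions over 9 samples that fall into 3 states. ALD6 was nearest to MET17, the gene of a sulphur assimilation enzyme (0.968), to NNF1 (0.960) and to RPI1 (0.951). ALD5 was nearest to PFK2, BAT1 and LEU1 (0.946, 0.943 and 0.936), and ACS2 to MUP1, MRL1 and OPI1 (0.907, 0.891 and 0.878). For ALD2 the nearest were OMA1, MAF1 and OSM1 (0.910 to 0.926), and for ALD3 SPS100, PAU17 and BDH1 (0.913 to 0.930). For ALD4 they were LDO16, GAL11 and GAT1 (0.898 to 0.914). Among the 9 genes, ALD6 and ACS2 correlated at 0.803, and ALD6 with ACS1 at 0.08.

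The regulators of these genes were measured on the same arrays. Of 12 regulator genes 4 were called higher and 1 lower in Xyl72h than in Glc5h, beside 11.7% and 14.0% of all tested probe sets. Against Glc24h 1 was called higher and 3 lower, beside 3.37% and 2.26% of all. Between the glucose states 5 were called higher in derepressed cells and 1 lower, beside 14.4% and 19.1% of all. The median differences of the list were 0.49, −0.34 and 0.53 in the same order, genes at the floor entering at 16, beside the medians over all probe sets given above. ADR1, the activator of ADH2 and ACS1, was at the floor in all Glc5h cultures, at 49.5 ± 5.32 in Glc24h and at 35.6 ± 5.78 in Xyl72h. It was thus at least 2.21-fold higher on xylose than in Glc5h (adjusted p = 0.00168) and was not called against Glc24h (log2 difference −0.48, adjusted p = 0.102). CAT8, the other activator, was at the floor in Glc5h, at 64.5 ± 7.70 in Glc24h and at 26.6 ± 7.93 in Xyl72h. Xylose cells were at least 1.62-fold above Glc5h (adjusted p = 0.0435) and 2.48-fold below Glc24h (adjusted p = 0.0155). SIP4, whose product binds the same element as Cat8p, was at the floor in Glc5h, at 277 ± 103 in Glc24h and at 32.9 ± 9.86 in Xyl72h, 8.28-fold lower on xylose than in derepressed cells (adjusted p = 0.00264). The spread of a state with all cultures at the floor is 0 by construction, which can make these p-values too small. HXK2, the hexokinase gene that takes part in glucose repression, stood high on xylose, at 416 ± 37.9 against 34.1 ± 11.3 in Glc24h (12.7-fold, adjusted p = 0.00255), and at 553 ± 196 in Glc5h. SNF4, for a subunit of the Snf1p kinase, was the 1 regulator called lower on xylose than in Glc5h (log2 difference −0.85, adjusted p = 0.0435). OAF1, for an oleate-activated transcription factor, was at 17.7 ± 1.06, 52.5 ± 13.8 and 28.9 ± 2.46 in Glc5h, Glc24h and Xyl72h and was called in all 3 comparisons, with adjusted p = 0.0267 above Glc5h and 0.0424 below Glc24h on xylose.

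Genes listed as carriers of acetate and lactate, with their relatives, were mostly called higher on xylose than in glucose repressed cells, but the acetate transporter gene ATO1 was not. What the products of ATO2, ATO3 and FPS1 carried in these cells was not tested. Of 5 genes 4 were called higher in Xyl72h than in Glc5h, beside 11.7% of all tested probe sets. Against Glc24h 2 were called lower, beside 2.26% of all. The medians were 2.92 and 0.08. The acetate transporter gene ATO1 (ADY2) was at the floor in all Glc5h and all Xyl72h cultures and at 180 ± 87.1 in Glc24h, at least 10.4-fold above both. Its relative ATO2 was at 25.7 ± 16.9, 512 ± 144 and 558 ± 241 in Glc5h, Glc24h and Xyl72h, 23.2-fold higher on xylose than in Glc5h (adjusted p = 0.00106) and close to the derepressed mean (log2 difference 0.08). ATO3 was at 190 ± 76.3 on xylose, 7.54-fold above Glc5h (adjusted p = 0.00312). JEN1, the lactate permease gene, was at the floor in Glc5h, at 518 ± 89.8 in Glc24h and at 166 ± 49.3 in Xyl72h, 3.19-fold lower on xylose than in derepressed cells (adjusted p = 0.00919). FPS1, the aquaglyceroporin gene, was 1.39-fold higher on xylose than in Glc5h (85.0 ± 10.2 against 61.0 ± 5.74, adjusted p = 0.0277).

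Acetyl units formed in the cytosol can enter the mitochondrion as acetylcarnitine, or acetyl-CoA can be used in the glyoxylate cycle. The paper names no carnitine in the medium, and use of either route was not measured. Of 5 genes of the carnitine shuttle 4 were called higher in Xyl72h than in Glc5h, beside 11.7% of all tested probe sets. Against Glc24h 3 were called lower, beside 2.26% of all. The medians were 1.55 and −2.71. The carrier gene CRC1 was at 18.6 ± 4.49, 679 ± 300 and 114 ± 63.7 in the 3 states, and the carnitine acetyltransferase gene YAT2 at 24.4 ± 9.20, 543 ± 170 and 75.4 ± 35.6. Of the other carnitine acetyltransferase genes, CAT2 was at 16.9 ± 1.54, 271 ± 81.9 and 36.4 ± 9.82 and was called in all 3 comparisons. YAT1 was at 37.0 ± 7.39, 1464 ± 786 and 274 ± 264, and its xylose difference from Glc24h was not called (adjusted p = 0.0684). Of 10 genes of the glyoxylate cycle and of acetyl-CoA entry into citrate, gluconeogenesis included, 4 were called higher than in Glc5h and 6 lower than in Glc24h, and 8 were called higher in Glc24h than in Glc5h (medians 0.91, −1.81 and 3.41). The shares over all tested probe sets were 11.7%, 2.26% and 14.4% in the same order. ICL1, the isocitrate lyase gene, was at 22.0 ± 10.3, 949 ± 435 and 198 ± 39.7, which is 9.51-fold above Glc5h (adjusted p = 0.00201) and 4.51-fold below Glc24h (adjusted p = 0.0281) on xylose. MLS1, the malate synthase gene, was at the floor in Glc5h, at 987 ± 520 in Glc24h and at 242 ± 37.7 in Xyl72h. PCK1, for phosphoenolpyruvate carboxykinase, was at 16.8 ± 1.23, 844 ± 437 and 104 ± 72.7 in the 3 states, with adjusted p = 0.0114 against Glc5h and 0.0156 against Glc24h on xylose. SFC1, for the mitochondrial succinate-fumarate carrier, was at the floor in Glc5h, at 290 ± 77.5 in Glc24h and at 29.3 ± 4.65 in Xyl72h, 9.70-fold lower on xylose than in derepressed cells (adjusted p = 0.000486). In sign, ICL1, MLS1, PCK1 and SFC1 were thus called on xylose as ADH2 and ACS1 were. The citrate synthase genes differed from each other. CIT1 and CIT2 were called in none of the 3 comparisons. CIT3 was called higher in Glc24h than in Glc5h (log2 difference 2.24, adjusted p = 0.000294). It was lower on xylose than in Glc24h (log2 difference −1.71, adjusted p = 0.00494) and not called against Glc5h (0.53, adjusted p = 0.0894).

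Genes that supply acetaldehyde from pyruvate, or reduce it to ethanol, were called in both directions on xylose. Of 10 genes 9 were tested, with 1 called higher and 2 lower than in Glc5h, beside 25.7% of all probe sets called, and 1 lower than in Glc24h, beside 5.63% of all (medians −0.35 and 0.79). ADH6, for an NADPH-dependent alcohol dehydrogenase, was at 148 ± 47.8, 24.3 ± 14.4 and 47.0 ± 15.4 in Glc5h, Glc24h and Xyl72h, 3.16-fold lower on xylose than in Glc5h (adjusted p = 0.0342). PDC5, a pyruvate decarboxylase gene, was lower on xylose than in either glucose state (26.0 ± 2.83 against 83.2 ± 26.9 and 61.9 ± 3.28, adjusted p = 0.00369 and 0.0304), the same pair of calls as for ALD6. PDC1, the major isoform, was at 1134 ± 625, 208 ± 90.7 and 848 ± 355 in Glc5h, Glc24h and Xyl72h and was called lower in Glc24h than in Glc5h (5.27-fold, adjusted p = 0.00768), with an adjusted p of 0.0534 for xylose against Glc24h. ADH1, which mainly reduces acetaldehyde in fermentation, was at 1475 ± 750, 708 ± 281 and 1563 ± 524 and was called in no comparison. ADH3, the mitochondrial isoform, was called higher on xylose (1.58-fold, adjusted p = 0.0156) and in Glc24h (1.95-fold, adjusted p = 0.00250) than in Glc5h. ADH4, another alcohol dehydrogenase gene, was called lower in Glc24h than in Glc5h (231 ± 164 against 1418 ± 761, adjusted p = 0.00869) and was at 638 ± 117 on xylose.

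**Figure D4:**
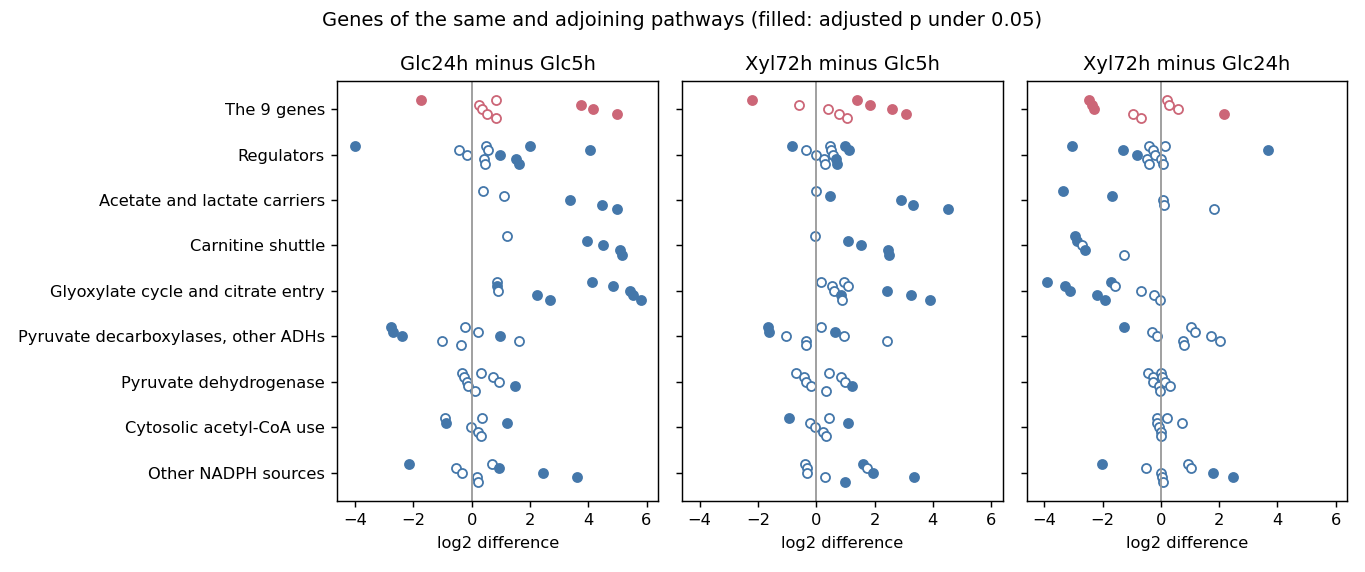
Log2 difference (x axis) of each tested gene of the 9 genes and of 8 lists of related genes in the 3 comparisons; each point is 1 gene and filled points have an adjusted p under 0.05. Carnitine shuttle and glyoxylate cycle genes lie mostly right of 0 in the 2 comparisons with Glc5h and left of 0 against Glc24h, while the 9 genes lie on both sides in each comparison.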

How the data were processed

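RNA of 3 glucose cultures at 2 times and of 3 xylose cultures was measured on Affymetrix Yeast Genome S98 arrays. The authors deposited linear signal intensities from MicroArray Suite, scaled so that the mean of each array without the top and bottom 2% is 50.03 to 50.06. These are not the log2 values of Robust Multichip Average that the methods of the paper describe, so the form of the analysis planned for linear signals was used. The deposited table names no genome build, and no positions or sequences are given.

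After removal of 60 control probe sets each array was scaled to a 75th percentile of 51.08, a floor of 16 was applied, and log2 signals of the 3 hybridisations of culture 2 were averaged. Of 9275 probe sets 3398 at the floor on every array were left out. Of all probe sets 6504 have 1 gene name in the platform annotation, updated by gene ID in RefSeq's gene table (assembly R64), 328 have several and 2443 are not listed. A gene is represented by its plain probe set, then by the one with the highest mean.

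Differences between the states came from 1 linear model in limma 3.58.1 (R 4.3.3, statmod 1.5.0; lmFit and eBayes, two-sided, Benjamini-Hochberg over 5877 probe sets), which was tested on simulated data. Signals are means ± SD over separate cultures on the linear scale. An exact permutation test of 3 cultures against 3 cannot go below p = 0.1. A fold against a state that is wholly at the floor is a lower bound against 16. The number of arrays limits the precision. Plots used Python 3.11.15 and matplotlib 3.10.9.

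The 2 samples of a glucose culture share its number, from the methods of the paper. Deviations from the state means of same-numbered samples correlated at 0.02, 0.19 and 0.26 between Glc5h and Glc24h, 0.11, 0.28 and 0.20 between Glc5h and Xyl72h, and 0.58, 0.53 and 0.57 between Glc24h and Xyl72h. With samples of another number the highest values were 0.09, −0.05 and 0.02, then 0.01, −0.11 and 0.02, then −0.25, −0.11 and −0.14, in the same order. A fit without a block takes same-numbered samples as independent, also those of separate glucose and xylose cultures. The fit has no block, as in the methods, and the number as a block is an alternative, beside other scalings, floors, filters, the first hybridisation alone, a trended robust fit, the permutation analysis of variance of the methods and leaving out each sample.

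The members and the gene lists were chosen with earlier results of these data known. All 9 members are named. From a list, the genes called in a comparison are named, at most the 4 with the largest difference in it, plus any called against its list-mates, and for each member the 3 genes of most similar profile. ADH1, CIT1, CIT2, CIT3, ERG10, FAS1, FAS2 and ZWF1 are named outside this rule, after their values were seen.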

Additional observations from a re-analysis of the deposited data

How the results depend on the processing

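Of the 27 differences of the 9 genes, 13 were called, and 21 alternatives were run. The calls of ACS1 (3), ALD6 on xylose (2), ACH1 against Glc5h (2) and ADH2 between the glucose states were kept under all of them. ADH2 on xylose was past the threshold in 12 of 20 (against Glc5h) and 9 of 20 (against Glc24h), ALD3 in 8 of 20, and ALD5 in 15 of 20 (xylose) and 19 of 21 (glucose). The number of the genes called in Xyl72h against Glc5h was 5, and 3 with a floor of 32 or with no filter on dim probe sets. Against Glc24h it was 4, and 2 with no filter. The F-test called 5, and 6 with quantile or cyclic loess normalisation (ACS2 added). The methods' analysis of variance by exact permutation at p under 0.01 called 3, ADH2, ACS1 and ACH1. It did not call ALD5 (permutation p = 0.0143) or ALD6 (permutation p = 0.0214). This permutation analysis takes the 3 states together and is counted apart from the 21 alternatives. Leaving out 1 sample gave 3 to 4 calls against Glc5h (3 without Glc5h culture 0 or 1, Glc24h culture 2 or Xyl72h culture 2), 2 to 3 against Glc24h (2 without Glc24h culture 0 or Xyl72h culture 0 or 2), 4 to 5 between the glucose states and 5 to 6 in the F-test. Fewer samples then entered the fit. The sign turned in uncalled differences only: ALD4 against Glc24h was −0.090 with quantile and −0.19 with cyclic loess normalisation, and with a sample left out the range was −0.13 to 0.70 for ALD4, −0.021 to 0.69 for ALD2 (both Xyl72h minus Glc24h) and −0.022 to 0.50 for ALD6 (Glc24h minus Glc5h). The cause was not tested.

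With the fermentation number as a replicate block, 6 genes were called against Glc5h (ALD2 added) and 7 in the F-test (ALD2 and ACS2 added), and with the culture as a replicate block among the glucose samples ALD3 was gained and ALD5 lost. The blocks changed no other call of the 9 genes. The glucose-only fit, on fewer samples, called 926 probe sets in place of 1969. Without a filter on dim probe sets 993, 157 and 1463 were called in place of 1508, 331 and 1969, and with the first hybridisation alone 215 in place of 331. Scaling on 5 reference genes moved the median of all probe sets by 0.13, −0.08 and 0.30 (Xyl72h minus Glc5h, Xyl72h minus Glc24h, Glc24h minus Glc5h) and the share of calls that were higher from 45.5%, 59.8% and 42.9% to 75%, 33.4% and 74.0%. No scaling gave 48.9%, 39.3% and 54.9%. Signals near 16, as those of ADH2, ACS1 and ALD3 in Glc5h and of ALD5 in Glc24h, limit the fold that could be measured.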

Other observations

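Other genes of NADPH supply, of the pyruvate dehydrogenase complex and of acetyl-CoA use in the cytosol border on the steps described above. Of 9 genes that supply NADP or NADPH beside ALD6, 4 were called higher in Xyl72h than in Glc5h (limma, adjusted p under 0.05, median log2 difference 0.98), and against Glc24h 2 were called higher and 1 lower (median 0.08). Of all tested probe sets 11.7% were called higher against Glc5h, and 3.37% higher and 2.26% lower against Glc24h. YMR315W, for an NADP-dependent oxidoreductase, was at 583 ± 108 in Xyl72h (SD, n = 3 cultures), beside 155 ± 48.5 in Glc5h and 104 ± 17.0 in Glc24h, higher on xylose than in both glucose states by 3.84-fold (adjusted p = 0.00189) and 5.62-fold (adjusted p = 0.00264). GND2, the minor 6-phosphogluconate dehydrogenase gene, was 10.2-fold higher on xylose than in Glc5h (adjusted p = 0.000927). GND1, the major one, was at 602 ± 176, 131 ± 14.7 and 450 ± 3.71 in Glc5h, Glc24h and Xyl72h. It was 3.44-fold higher on xylose than in Glc24h (adjusted p = 0.00519) and not called against Glc5h (log2 difference −0.38, adjusted p = 0.230). Between the glucose states it was called 4.47-fold lower in Glc24h (adjusted p = 0.000404). IDP2, the cytosolic NADP-dependent isocitrate dehydrogenase gene, was at the floor in Glc5h, at 195 ± 31.2 in Glc24h and at 51.1 ± 21.9 in Xyl72h, so that it was called higher than Glc5h and lower than Glc24h on xylose, with the signs of ADH2 and ACS1. UTR1, an NAD kinase gene, was at 17.9 ± 1.76, 34.6 ± 2.54 and 36.0 ± 9.43 in Glc5h, Glc24h and Xyl72h and was called higher in both of the latter than in Glc5h (adjusted p = 0.00757 and 0.00915). ZWF1, for glucose-6-phosphate dehydrogenase, was at 133 ± 43.2, 249 ± 155 and 454 ± 192 in the 3 states and was called in no comparison.

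Of 9 genes of the pyruvate dehydrogenase complex and its regulators, the mitochondrial route from pyruvate to acetyl-CoA, 1 was called higher in Xyl72h than in Glc5h (median 0.34). That is about the share over all tested probe sets, 11.7%. Against Glc24h limma called 0, and 0 were past an unadjusted p of 0.05 (median −0.05). The gene called against Glc5h was PKP2, for a kinase of the complex, at 27.4 ± 8.71 in Glc5h, 74.7 ± 7.53 in Glc24h and 64.4 ± 24.3 in Xyl72h (adjusted p = 0.0261 for xylose against Glc5h). Of 8 genes for enzymes that use cytosolic acetyl-CoA 7 were tested, with medians of 0.23 against Glc5h and 0 against Glc24h. Against Glc5h 1 was called higher and 1 lower, about the shares over all tested probe sets, 11.7% and 14.0%. Against Glc24h 0 were called, beside 5.63% of all. ACC1, the acetyl-CoA carboxylase gene, was called higher on xylose than in Glc5h (1062 ± 302 against 490 ± 60.0, adjusted p = 0.0202), and ERG13, for hydroxymethylglutaryl-CoA synthase, was called lower (158 ± 20.8 against 309 ± 69.3, adjusted p = 0.0116). The fatty acid synthase genes FAS1 and FAS2 and the thiolase gene ERG10 were called in none of the 3 comparisons. Of the 5 reference genes limma called 0 in each comparison, with 2, 0 and 2 past an unadjusted p of 0.05, all lower, and medians of −0.26, 0.40 and −0.66 for Xyl72h minus Glc5h, Xyl72h minus Glc24h and Glc24h minus Glc5h.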
